A study of Panicum sumatrense with 28 samples.

Results

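The radicle is the embryonic root of a cereal grain. It is the organ that leaves the seed at germination, anchors the seedling and begins the uptake of water and minerals. In grasses it forms the primary root, and the later root system comes largely from roots that arise on the stem. Described here are 150 assembled transcripts of little millet, Panicum sumatrense, a cereal with small grains, whose level was highest in the radicle of the seedling. They were chosen from 101935 transcripts by a score: the lowest of the 3 radicle libraries plus 1, divided by the highest of the other 25 libraries plus 1. A score of at least 4 was reached by 161 transcripts, and the 150 highest were taken as members. With the libraries brought to a common sum, 116 transcripts reached a score of 4, and 72 of them were members. The radicle values and the highest other value therefore chose the members, and both are given below as a description with no test.

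RNA was sequenced from 10 tissues of the genotype JK-8, grown in 1 growth chamber. The tissues were the radicle (3 days after sowing, 3 libraries), young root (13 days, 2 libraries), germinating seed (2 days, 3), plumule, the embryonic shoot (3 days, 3), young leaf (13 days, 3), crown meristem (26 days, 3), vegetative stem (48 days, 2), and panicle early (61 days, 3), mid (73 days, 3) and late (85 days, 3). No tissue was treated, and the 10 tissues differ in age as well as in organ. RNA was extracted by either of 2 methods, and the labels do not say which library had which, so the part of the method in any contrast between tissues was not tested. Libraries are called here by tissue and replicate number. The labels do not say whether the replicates of a tissue were different plants. A p-value therefore measures only how far these libraries scatter, and that scatter may be technical.

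Values are TPM (the share of reads of a transcript, corrected for its length) that the authors scaled by TMM, a factor per library meant to put most transcripts on 1 scale. The library totals ran from 660796 to 3202140 after this scaling, with the highest totals in young root, and read depth is unknown. A single transcript that is not a member, TRINITY_DN7657_c1_g1_i63, took 17.0% to 29.5% of each radicle library, 32.8% and 42.7% of the libraries of young root and 0.746% to 6.77% of those of germinating seed. The part of this difference in the results was not tested. The libraries were also rescaled to a common sum, which is given where it changes a result. That sum includes this transcript, so the rescaling cannot set its part apart. Transcripts carry identifiers of the assembly, in which DN and c number a cluster of reads, g an assembled gene and i an isoform. The table does not pair them with gene names, so the functions of the members were not analysed here and the tissue labels were not checked against marker genes.

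The member with the highest score, TRINITY_DN4446_c0_g1_i6, had values of 948, 948 and 1383 in the radicle, 17.6 and 20.4 in young root, and 23.0, 16.4 and 18.7 in germinating seed. In the other 20 libraries it was listed at 0 or at values up to 0.172. The radicle stood far above the other tissues, young root and germinating seed overlapped, and the shoot and panicle libraries were near 0. Its score was 39.5. TRINITY_DN3834_c0_g1_i1, with a score of 38.0, had 392, 474 and 657 in the radicle, 3.61 and 9.35 in young root, 7.82, 1.44 and 2.63 in germinating seed, and up to 1.83 in panicle early. Here too the 2 tissues next to the radicle overlapped, and all 3 radicle libraries lay far above every other library. TRINITY_DN28044_c0_g1_i1 scored 29.6, with 156, 112 and 134 in the radicle and 0 and 2.81 in young root. No other library of this transcript passed 0.717.

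From the fourth member on the scores were lower and closer to each other. TRINITY_DN6401_c0_g1_i2 had 181, 128 and 134 in the radicle, 0 and 0.993 in young root, and 4.16, 2.79 and 5.72 in germinating seed. Its germinating seed libraries all lay above both young root libraries. TRINITY_DN31_c0_g1_i2 had 176, 215 and 237 in the radicle and 8.58 to 9.78 in germinating seed, and it was above 0 in every library of the atlas. TRINITY_DN622_c1_g2_i1 had 14.6, 16 and 13.9 in the radicle, and TRINITY_DN28044_c0_g2_i1 had 31.5, 13.9 and 15.4. Both were listed at 0 in all 25 other libraries, so their scores of 14.9 depend wholly on their radicle level and the added 1. TRINITY_DN10925_c1_g1_i1 had 106, 101 and 162 in the radicle, 0 in both young root libraries and 0, 3.04 and 6.05 in germinating seed. TRINITY_DN105344_c0_g1_i1 had 466, 309 and 345 in the radicle, 19.6 and 12.9 in young root, and 17.2, 8.98 and 20.8 in germinating seed. The last of the 10, TRINITY_DN16339_c0_g1_i1, varied most within the radicle, with 22, 63.2 and 83.2. Its only other values above 0 were 0.662 in 1 crown meristem library and 0.811 in 1 panicle early library.

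**Figure D1:**
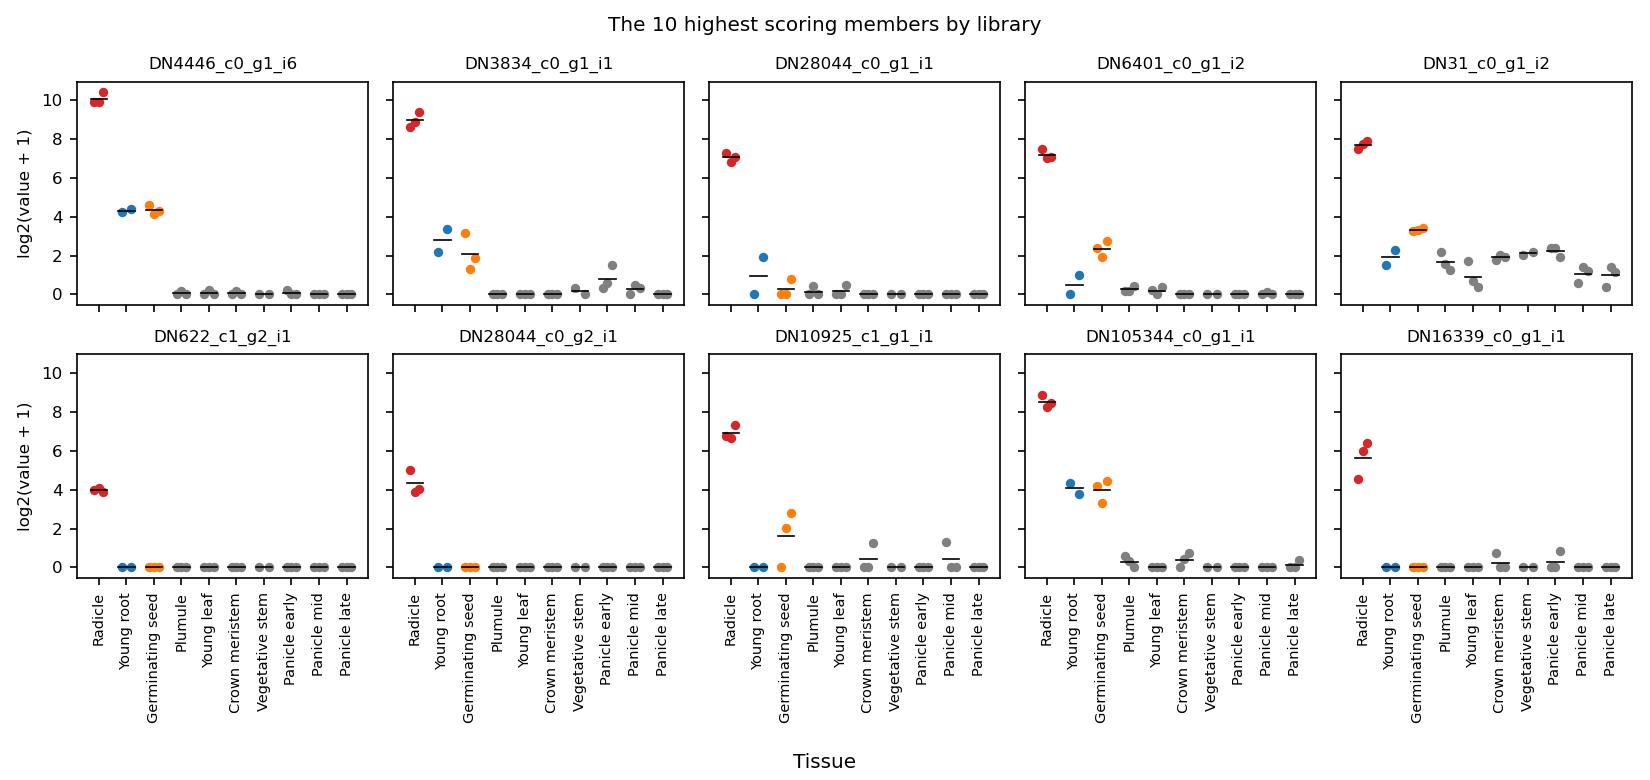
The 10 members with the highest scores, on a log2(value + 1) scale of TMM-scaled TPM, by tissue. Points are libraries and bars are tissue means; identifiers are drawn without their TRINITY prefix. The radicle points (red) lie above all others in each panel, and young root (blue) or germinating seed (orange) holds the next level in 7 of the 10 panels.

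Over all 150 members the scores ran from 4.15 to 39.5 with a median of 5.50, and 17 members reached 10. The mean radicle value ran from 3.75 to 5993 with a median of 53.4. It was at least 1000 for 7 members, 100 to 1000 for 44, 10 to 100 for 88 and below 10 for 11. The highest value in any other library ran from 0 to 787 with a median of 5.70. For the 135 members with a value above 0 elsewhere, the radicle mean was 5.56 to 288 times the mean of the next tissue, with a median of 13.0 times. The most abundant member made up 18% of the summed radicle value of all members, the 5 most abundant 48.0% and the 20 most abundant 73.3%.

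The 5 most abundant members had moderate scores, since they were also well above 0 in young root and germinating seed. TRINITY_DN514_c4_g2_i1 had 7325, 5438 and 5217 in the radicle, 787 and 431 in young root, and 405, 746 and 683 in germinating seed. It had 11.7 to 19.0 in plumule and 14.9 to 17.7 in crown meristem, and was listed at 0 in young leaf and vegetative stem. Young root and germinating seed overlapped, far below the radicle. TRINITY_DN16498_c2_g1_i1 had 2089, 2033 and 2500 in the radicle, 378 and 377 in young root, and 170, 224 and 187 in germinating seed. In this case both young root libraries lay above all germinating seed libraries, and plumule followed at 4.18 to 5.19. TRINITY_DN2061_c0_g2_i1 had 1618, 1163 and 1288 in the radicle, 97.1 and 128 in young root, and 48.9, 64.0 and 72.7 in germinating seed. Its order of tissues was the same, with crown meristem next at 3.98 to 5.21.

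The other 2 of the 5 belong to 1 read cluster, TRINITY_DN4622_c0, which with 3 members holds more of them than any other cluster. TRINITY_DN4622_c0_g2_i1 had 5425, 3086 and 3968 in the radicle, 68.2 and 84 in young root, and 269, 213 and 317 in germinating seed. TRINITY_DN4622_c0_g1_i4 had 3434, 1419 and 2074 in the radicle, 83.3 and 89.5 in young root, and 131, 96.9 and 184 in germinating seed. TRINITY_DN4622_c0_g3_i1 had 764, 399 and 560 in the radicle, 9.47 and 15.7 in young root, and 41.7, 19.5 and 44.8 in germinating seed. All 3 were highest in radicle replicate 1 and lowest in radicle replicate 2, and all 3 had every germinating seed library above both young root libraries. Isoforms of 1 read cluster can be near-identical and share reads, so these values are not independent of each other.

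**Figure D2:**
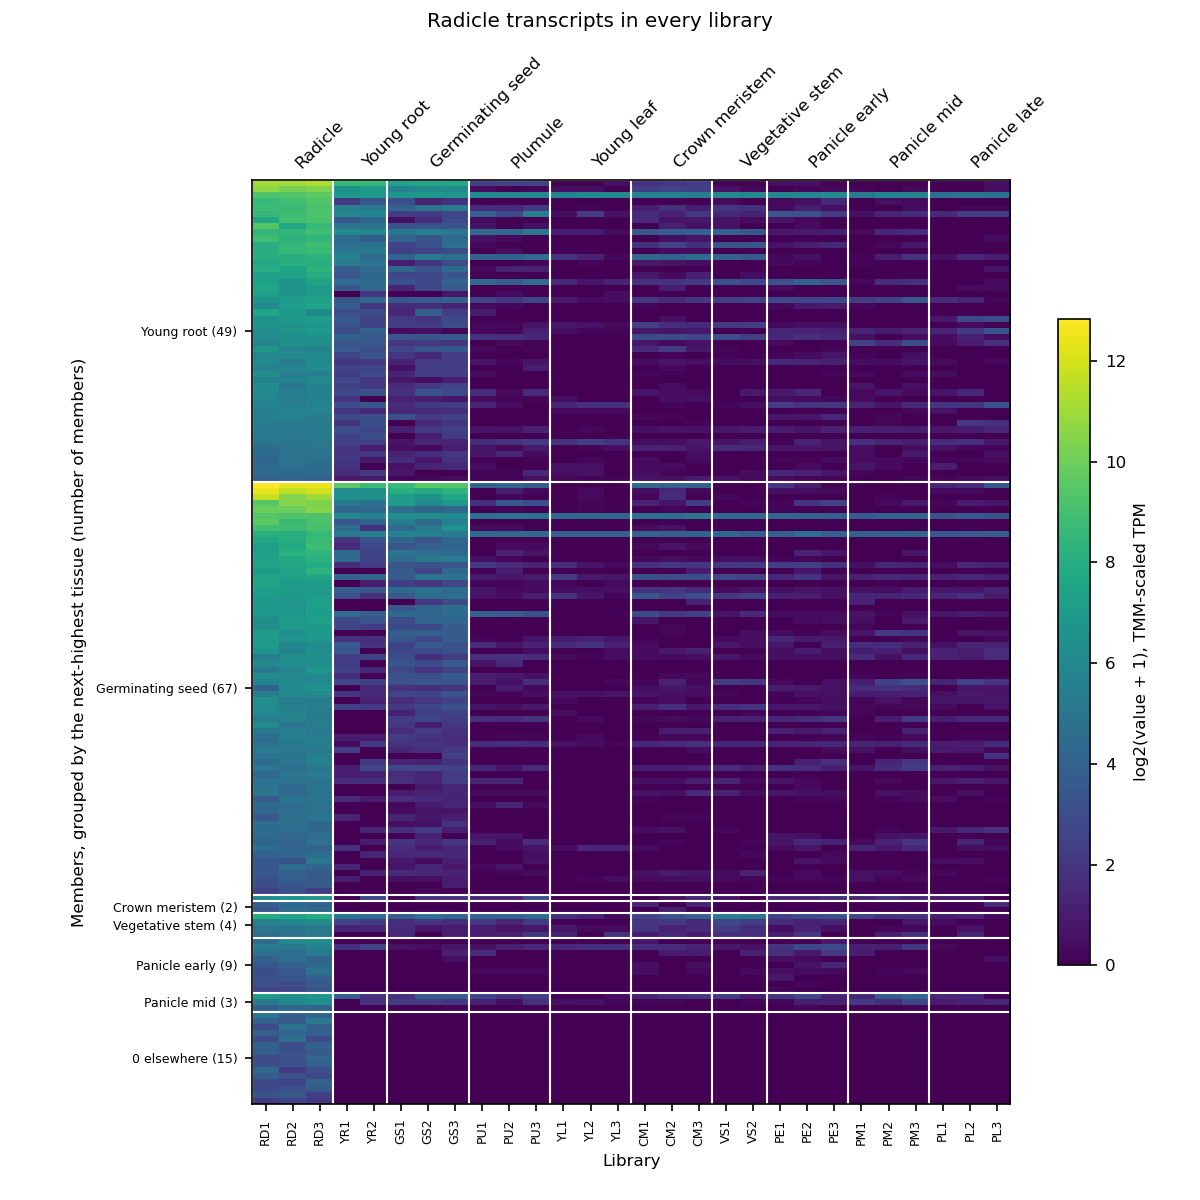
Level of all 150 members (rows) in all 28 libraries (columns), as log2(value + 1) of TMM-scaled TPM. Rows are grouped by the tissue with the next-highest mean, with the number of members in brackets (the unlabelled row above crown meristem is the 1 member next in plumule), and ordered by radicle level within a group. Outside the radicle the colour lies mainly in young root and germinating seed, and 15 rows are 0 elsewhere.

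The limit of the rule cut through a dense range of scores. The members just inside were TRINITY_DN12306_c0_g1_i9 at 4.16, TRINITY_DN18830_c1_g1_i2 at 4.16 and TRINITY_DN19556_c0_g1_i1 at 4.15. TRINITY_DN19556_c0_g1_i1 had 9.97, 22.3 and 16.4 in the radicle, 1.56 and 0 in young root, and 0.640, 1.65 and 0.822 in germinating seed. Just outside lay TRINITY_DN21175_c0_g1_i3 at 4.14, TRINITY_DN15560_c0_g1_i2 at 4.12 and TRINITY_DN3656_c2_g2_i1 at 4.12. TRINITY_DN21175_c0_g1_i3 had 22.2, 38.5 and 55.3 in the radicle, 4.60 and 2.40 in young root, and 0.306 to 1.84 in germinating seed.

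The members varied between the radicle libraries. The coefficient of variation of the 3 values had a median of 23.8% over the members, against 27.6% over the 13045 transcripts that were at or above the lowest member in every radicle library. The score takes the lowest radicle value and so favours transcripts whose radicle values agree. The lower median may therefore follow from the rule. Radicle replicate 3 gave the highest value for 80 members (53.3%), against 35.7% of those transcripts. Replicate 1 gave the lowest for 75 (50%), against 32.3%. Replicate 3 is also the only radicle library whose identifier belongs to the other of 2 identifier series in the labels. The part of that series in the difference was not tested, and the identifiers are not said to mark a batch. Young root also has 1 library in each series. Germinating seed, plumule, young leaf and crown meristem lie in 1 series, and vegetative stem and the panicle stages in the other.

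Scoring with 1 radicle library left out shows how far the choice rests on each. Without replicate 1, 290 transcripts reached a score of 4, the top 150 of them shared 104 with the members, and 106 of those 150 also reached 4 when replicate 1 alone was set against the highest other library. Of the same 150, 138 were above that library by the ratio of values plus 1, and the lowest ratio was 0.125. Without replicate 2, 239 transcripts reached 4, 114 of the top 150 were members, and 116 reached 4 in replicate 2 alone. Without replicate 3, 189 reached 4, 128 were members, and 128 reached 4 in replicate 3 alone. Replicate 1 thus removed more candidates than the other 2 libraries did. The 25 other libraries were the same in each case, so they bear on the radicle side of the score only.

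Young root and germinating seed were the tissues next to the radicle for most members. Germinating seed had the highest mean among the other 9 tissues for 67 members, young root for 49, panicle early for 9, vegetative stem for 4, panicle mid for 3, crown meristem for 2 and plumule for 1. Young leaf and panicle late were next for no member, and 15 members were listed at 0 in all 25 other libraries. These 15 were low in the radicle too, with means of 3.75 to 20.2. At a read share this low a 0 elsewhere may lie under what these libraries could detect, and the files give no depth to set that limit. The split between germinating seed and young root depends on the scale of the libraries. On the log2 scale, young root was above germinating seed for 51 of the 116 tested members and below for 64. With libraries brought to a common sum, it was above for 15 and below for 100. The next tissue was not counted again with a common sum.

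Members next highest in a shoot or panicle tissue were mostly low outside the radicle. TRINITY_DN169937_c0_g1_i1 had 10.1, 21.8 and 19.0 in the radicle and a single other value, 1.04 in 1 crown meristem library. TRINITY_DN148310_c0_g1_i1 had 13.6, 19.4 and 16.9 in the radicle and no value above 0.173 elsewhere. TRINITY_DN150631_c0_g1_i1 had 75.5, 93.2 and 108 in the radicle, against 1.74, 1.72 and 8.13 in plumule, and its place in plumule rests on 1 of those 3 libraries. TRINITY_DN108617_c0_g1_i1 had 46.6, 60.0 and 74.3 in the radicle, 5.23 and 3.60 in young root, and 5.76 and 4.0 in vegetative stem. Its young root and vegetative stem libraries overlapped, so the order of those tissues is not fixed by these values.

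Breadth across tissues ranged widely. No other tissue had a mean of 1 or more for 34 members, 1 other tissue did for 17, 2 for 44 and 3 or more for 55. Of the 17, 14 had germinating seed as that tissue and 2 had young root. Of the 44, 38 had exactly young root and germinating seed. A mean of 1 or more was reached by 93 members in young root, 108 in germinating seed, 31 in plumule, 17 in young leaf, 34 in crown meristem, 27 in vegetative stem, 31 in panicle early, 34 in panicle mid and 26 in panicle late. Young leaf had the most members listed at 0 in every library, with 96, and germinating seed the fewest, with 23.

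At the broad end, 5 members kept a mean of at least 1 in each of the 9 other tissues. Of these, TRINITY_DN31_c0_g1_i2 and TRINITY_DN5479_c0_g1_i10 are described elsewhere in the text, and the other 3 were chosen after their values were seen. TRINITY_DN6631_c0_g1_i5 had 619, 645 and 766 in the radicle, 114 and 126 in young root, 110, 119 and 105 in germinating seed, 55.3, 66.5 and 60.2 in young leaf, and 26.6, 30.3 and 27.2 in panicle late. TRINITY_DN18341_c0_g1_i8 had 701, 639 and 605 in the radicle, 68.7 and 50.8 in young root, 79.5, 78.9 and 74.6 in germinating seed and 17.9 to 20.3 in young leaf. TRINITY_DN8428_c0_g1_i8 had 267, 258 and 379 in the radicle, 39.5 and 45.8 in young root, 48.7, 48.5 and 42.7 in germinating seed and 14.9 to 15.5 in young leaf.

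Summed over the members, the radicle libraries held 29416 to 35711, which is 1.88% to 2.42% of their totals. The sum was 2173 and 2587 in young root (0.0679% and 0.0940% of the total) and 2047 to 2791 in germinating seed (0.189% to 0.306%). It was 278 to 362 in plumule, 117 to 135 in young leaf, 243 to 257 in crown meristem, 229 and 265 in vegetative stem, 180 to 218 in panicle early, 125 to 206 in panicle mid and 87.0 to 136 in panicle late. Young root and germinating seed overlapped in the summed value and lay above every library of the 7 remaining tissues. As shares of the library total, all 3 germinating seed libraries lay above both young root libraries. In whole tissues, fewer cells of a type and less RNA per cell cannot be told apart. Within germinating seed the members did not move evenly: replicate 3 gave the highest value for 64 of the 108 members with a mean of 1 or more there (59.3%), against 32.5% of all transcripts with such a mean.

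The share of members at a value of 1 or more was 60.7% and 60.0% in young root, against 27.8% and 27.0% of all transcripts, and 64.0% to 75.3% in germinating seed, against 34.9% to 39.9%. In young leaf it was 6.67% to 10.7%, against 29.1% to 30.6% of all transcripts. In the other 6 tissues the members' share lay between 12.7% and 25.3%, below that of all transcripts in each library.

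**Figure D3:**
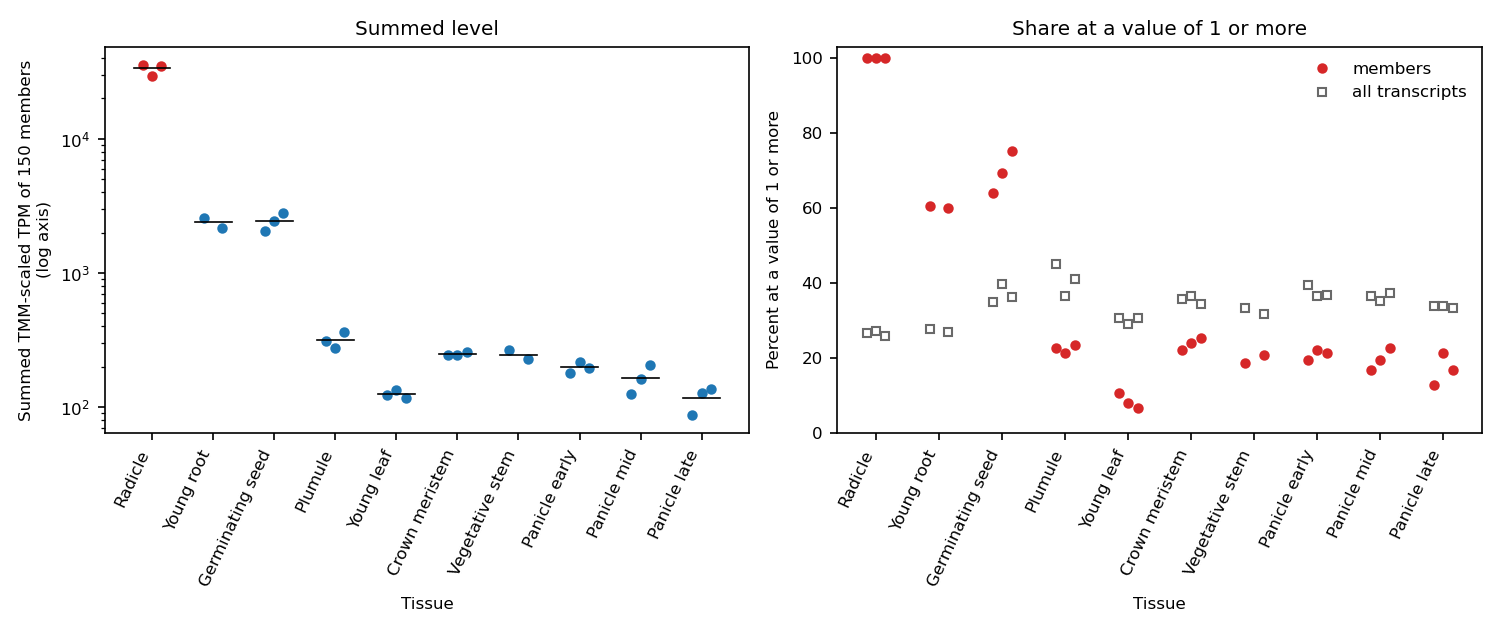
Left, the summed TMM-scaled TPM of the 150 members in each library on a log axis, with bars at tissue means. Right, the percent of members (filled) and of all 101935 transcripts (open) at a value of 1 or more in each library. Young root and germinating seed hold 2047 to 2791 of summed member value, and the members' share exceeds that of all transcripts in both. In the radicle the rule itself puts every member above 1.

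Contrasts among the other tissues do not use the radicle values. They were tested with limma on log2(value + 1) in the 25 other libraries, over the 74962 transcripts that reached 1 in 2 or more of them. A call needs a Benjamini-Hochberg adjusted p below 0.05 and a difference of at least 1 on the log2 scale, two-sided. Of the members 116 were tested, and 34 were too low outside the radicle. The rule still used the highest of the 25 libraries, and a member may pass the filter through 1 compared tissue, so the counts are set beside the share called among all transcripts. Where a tissue is listed at 0 in every library, no difference is printed, since it would depend on the added 1. The size of a difference from a tissue with values below 1 depends on the added 1 too.

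Young root against young leaf compares root and shoot at day 13. Higher levels in young root were called for 76 of the 116 tested members (65.5%; 50.7% of all 150), against 12.9% of all transcripts. Lower levels were called for 0 members, against 16.8% of all transcripts; 89 members had an unadjusted p below 0.05 in either direction. The difference was positive for 101 and negative for 4 of the tested members, with a median of 2.13 on the log2 scale, against 0 over all transcripts. This median includes members listed at 0, and it was 4.49 with 0.1 and 0.87 with 5 in place of the added 1. With libraries brought to a common sum, 59 members (50.9%) were called higher, against 6.28% of all transcripts, and the median was 1.04, with 97 differences positive and 8 negative.

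TRINITY_DN514_c4_g2_i1, at 787 and 431 in young root and at 0 in young leaf, was called higher (limma, adjusted p = 2.7e-11). TRINITY_DN16498_c2_g1_i1 had 378 and 377 in young root, against 0, 0 and 0.400 in young leaf, a difference of 8.40 (SE 0.23, adjusted p = 1.7e-15). TRINITY_DN2061_c0_g2_i1 was higher in young root by 6.46 (adjusted p = 1.4e-13), with 97.1 and 128 against values up to 0.463 in young leaf. TRINITY_DN4446_c0_g1_i6, first by score, was higher by 4.24 (SE 0.21, adjusted p = 3.0e-12). The broad TRINITY_DN6631_c0_g1_i5 differed by 0.97 (SE 0.16, adjusted p = 4.4e-05), just under the size needed for a call, with 114 and 126 in young root and 55.3 to 66.5 in young leaf. TRINITY_DN31_c0_g1_i2 differed by 1.0 (adjusted p = 0.053) and was not called, but it was called in 7 alternative settings, among them leaving out young leaf replicate 1 (1.39, adjusted p = 0.0061) or young root replicate 1 (1.38, adjusted p = 0.031). Its adjusted p ran from 0.0061 to 1 over all its settings.

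Germinating seed against plumule sets the seed from which the radicle emerges beside the embryonic shoot. Higher levels in germinating seed were called for 81 of 116 members (69.8%; 54.0% of all 150), against 7.01% of all transcripts, and lower levels for 1, against 8.82%. Of the 116, 18 passed the filter only through these 2 tissues. With the filter applied to the other 7 tissues, 98 members were tested, of which 68 (69.4%) were called higher, against 7.0% of all transcripts, and 1 lower, against 8.85%. The difference was positive for 104 and negative for 11 tested members, with a median of 1.68 on the log2 scale, against 0 over all transcripts. This median includes members listed at 0 in plumule, and it was 3.59 with 0.1 in place of the added 1. With 5 in place of the added 1, 41 members (35.3%) were called higher, against 3.10% of all transcripts, and the median was 0.66.

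TRINITY_DN4622_c0_g2_i1 had 269, 213 and 317 in germinating seed, against 0, 0.939 and 0.221 in plumule, a difference of 7.63 (SE 0.28, limma adjusted p = 5.8e-13). Its cluster mate TRINITY_DN4622_c0_g1_i4 was higher by 6.97, with values up to 0.216 in plumule. TRINITY_DN514_c4_g2_i1 was higher by 5.19 (adjusted p = 7.8e-08), with 405, 746 and 683 in germinating seed and 15.8, 19.0 and 11.7 in plumule. The single member called lower, TRINITY_DN5479_c0_g1_i10, had 4.30, 3.33 and 5.63 in germinating seed, against 14.7, 6.32 and 42.3 in plumule. Its difference was -1.68 (SE 0.54, adjusted p = 0.029). The groups did not overlap, but 1 plumule library was far above the others, and the call was lost in 6 of 36 alternative settings, where the adjusted p ran from 0.0040 to 0.18. The settings that lost it included leaving out plumule replicate 1 or 3 and germinating seed replicate 1 or 2. In the radicle the same transcript had 368, 453 and 582, and in young root 63.2 and 56.6. Another call near the limit, that of TRINITY_DN10925_c1_g1_i1 as higher in germinating seed (adjusted p = 0.023), was lost in 7 settings. This transcript had 1 germinating seed library at 0. Leaving out germinating seed replicate 2 or 3 or any plumule library was enough, and the adjusted p ran up to 0.16 over the settings.

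Both contrasts called 60 of the 116 tested members higher, against 2.62% of all transcripts. Another 16 were called higher only in young root over young leaf, against 10.2% of all transcripts, 21 only in germinating seed over plumule, against 4.39%, and 19 in neither. Of the 116, 51 passed the filter only through young root and germinating seed, the tissues in which these calls are higher. The joint count may therefore follow in part from the filter. How large it would be with both tissues left out of the filter was not tested. Members whose next tissue was germinating seed could be read in the contrast that leaves that tissue out: 30 of the 59 tested were called higher in young root than in young leaf, against 12.9% of all transcripts, and 0 lower, against 16.8%. Likewise 33 of the 47 tested members whose next tissue was young root were called higher in germinating seed than in plumule, against 7.01% of all transcripts, and 1 lower, against 8.82%. Among all 9 other tissues, the moderated F test called 108 of 116 tested members (93.1%; 72% of all 150), against 58.3% of all transcripts tested. This count too follows in part from the filter, since 51 of the 116 reached it only through young root and germinating seed.

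**Figure D4:**
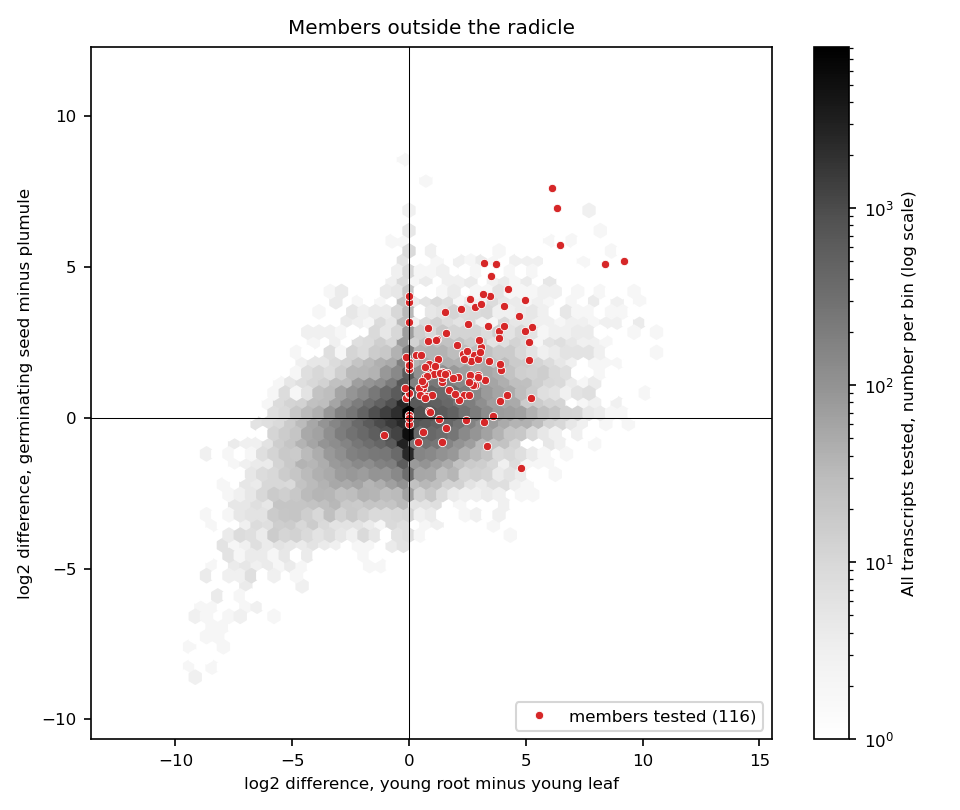
Differences on the log2(value + 1) scale between young root and young leaf (x axis) and between germinating seed and plumule (y axis) for the 116 tested members (red) and all 74962 transcripts tested (grey, number per bin on a log scale). Most red points lie above and to the right of 0, with medians of 2.13 and 1.68. The lowest point, at -1.68 on the y axis, is the member called lower in germinating seed.

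Young root against germinating seed gave calls in both directions. Each of the preceding contrasts shares its young root or its germinating seed libraries with this one. Higher levels in young root were called for 20 of 116 members (17.2%), against 8.12% of all transcripts, and lower levels for 28 (24.1%), against 17.7%. The remaining 68 were not called. Of the 116, 51 passed the filter only through these 2 tissues. With the filter applied to the other 7 tissues, 65 members were tested. Of these, 10 (15.4%) were called higher, against 6.81% of all transcripts, and 14 (21.5%) lower, against 18.0%. The share called lower was then near that of all transcripts. The median difference was -0.15 on the log2 scale over both the tested members and all transcripts. This balance depends on the scale of the libraries: with libraries brought to a common sum, 3 members (2.59%) were called higher, against 3.17% of all transcripts, and 57 (49.1%) lower, against 29.1%. The median difference was then -1.10 over the tested members and -0.47 over all transcripts. With quantile normalization 23 were called higher, against 9.57%, and 22 lower, against 13.6%, with a median of all transcripts of 0. With 5 as the added value 6 members (5.17%) were called higher, against 5.75% of all transcripts, and 12 (10.3%) lower, against 8.08%, so both shares were near those of all transcripts.

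The 3 largest differences towards young root were those of TRINITY_DN5479_c0_g1_i10, TRINITY_DN1636_c0_g2_i3 and TRINITY_DN64560_c0_g1_i3. TRINITY_DN5479_c0_g1_i10 was higher in young root by 3.51 (limma, adjusted p = 0.00010), with 63.2 and 56.6 there and 3.33 to 5.63 in germinating seed. TRINITY_DN1636_c0_g2_i3 had 204, 281 and 276 in the radicle, 43.2 and 29.8 in young root, and 0.959, 3.19 and 6.51 in germinating seed, a difference of 3.22 (adjusted p = 7.2e-07). TRINITY_DN64560_c0_g1_i3 had 71.0, 101 and 119 in the radicle, 7.11 and 15.8 in young root, and 0.243, 0.468 and 0.156 in germinating seed, a difference of 3.19 (adjusted p = 5.8e-06). Panicle late held 1.41, 3.37 and 8.93 of this last transcript, so its next level after young root was in the oldest tissue sampled. Among the most abundant members, TRINITY_DN16498_c2_g1_i1 differed by 0.97 (adjusted p = 0.0029) and TRINITY_DN2061_c0_g2_i1 by 0.86 (adjusted p = 0.013), both under the size needed for a call. Over all settings the limma adjusted p ran up to 0.42 for the former and 0.55 for the latter. Neither was called higher in young root with a common sum. Calls were made for TRINITY_DN16498_c2_g1_i1 without germinating seed replicate 2 (1.08) or with the replicate number as a covariate (1.01). A call was made for TRINITY_DN2061_c0_g2_i1 without young root replicate 1 (1.06).

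The 3 largest differences towards germinating seed were those of members listed at 0 in both young root libraries. TRINITY_DN82150_c0_g1_i2 had 119, 104 and 145 in the radicle and 9.62, 17.4 and 22.4 in germinating seed, and was listed at 0 in all 22 libraries of the other tissues. TRINITY_DN14194_c0_g1_i1 had 141, 83.9 and 115 in the radicle and 13.9, 13.3 and 12.8 in germinating seed (limma, adjusted p = 1.2e-08), with up to 3.42 in panicle mid. TRINITY_DN3286_c0_g2_i1 had 127, 169 and 312 in the radicle and 11.3, 5.21 and 18.8 in germinating seed. TRINITY_DN82150_c0_g1_i2 and TRINITY_DN3286_c0_g2_i1 passed the filter only through germinating seed. The direction of their difference, though not its size, follows from the filter, and no p is given. TRINITY_DN1636_c0_g2_i3, TRINITY_DN4446_c0_g1_i6 and the 3 members of TRINITY_DN4622_c0 passed it only through young root and germinating seed. For these too the filter used the compared values. Of the members described earlier, TRINITY_DN4622_c0_g2_i1 was lower in young root by a difference of -1.78 (adjusted p = 0.00012) and TRINITY_DN4622_c0_g3_i1 by -1.37 (adjusted p = 0.00069). TRINITY_DN4622_c0_g1_i4 differed by -0.61 (adjusted p = 0.23) and was not called, but with a common sum it was called lower in young root (-2.18, adjusted p = 0.00015). TRINITY_DN514_c4_g2_i1 and TRINITY_DN4446_c0_g1_i6 each differed by -0.02, and with a common sum both were called lower in young root, by -1.62 (adjusted p = 0.037) and -1.47 (adjusted p = 6.9e-06). Over all settings the adjusted p of each of these 2 reached 1, and that of TRINITY_DN4622_c0_g1_i4 reached 0.79. The call of TRINITY_DN31_c0_g1_i2 as lower in young root (-1.42, adjusted p = 0.0073) was lost in 3 settings, of which leaving out young root replicate 1 gave -1.04 (adjusted p = 0.13, the highest of its settings). The call of TRINITY_DN18830_c1_g1_i2 as higher was lost in 27 of 35 settings. Those of TRINITY_DN4622_c0_g2_i1 and TRINITY_DN4622_c0_g3_i1 were each lost in 1 setting. For TRINITY_DN4622_c0_g2_i1 it was 0.1 as the added value (limma, adjusted p = 0.14). For TRINITY_DN4622_c0_g3_i1 it was a fit of only the compared tissues, without the libraries of the others (adjusted p = 0.075).

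**Figure D5:**
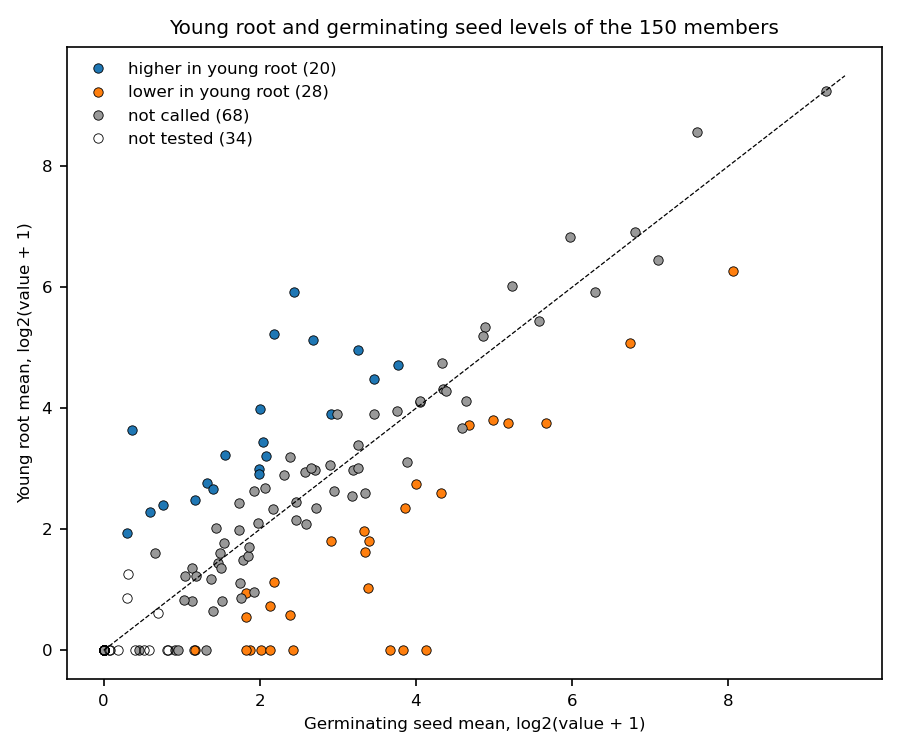
Mean log2(value + 1) of each of the 150 members in young root (y axis) and germinating seed (x axis), with the line of equal level dashed. Colours give the calls: 20 members higher in young root (blue), 28 lower (orange), 68 not called (grey) and 34 not tested (white). The orange points on the floor of the plot are members listed at 0 in young root.

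The members came from 145 assembly clusters (the DN number), of which 4 held more than 1 member: TRINITY_DN4622 with 3, and TRINITY_DN28044, TRINITY_DN3286 and TRINITY_DN4230 with 2 each. In 91 of the 145 clusters the member or members were the only rows in the table. The rest held 151 further transcripts that reached a mean of 1 in some tissue, and 61 of these (40.4%) were highest in the radicle, against 9484 of 82686 (11.5%) of all transcripts that are not members. Young root was the highest tissue for 14 (9.27%), against 11.1%. Rows of 1 cluster can share sequence and reads, so these are not independent of the members. The DN number alone is wider than a read cluster, and the 2 members of TRINITY_DN4230 lie in different read clusters. Of the 151 transcripts, 52 shared a read cluster with a member. Of those 52, 26 (50%) were highest in the radicle and 4 (7.69%) in young root. The members lay in 146 read clusters, of which 110 held no other row. The 2 members of TRINITY_DN3286 differed in young root: TRINITY_DN3286_c0_g1_i1, chosen after its values were seen, had 149, 297 and 344 in the radicle, 19.2 and 5.11 in young root, and 29.5, 23.3 and 21.1 in germinating seed, whereas TRINITY_DN3286_c0_g2_i1 was listed at 0 in young root.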

How the data were processed

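RNA-seq of 28 libraries from 10 tissues was analysed. The authors deposited 1 table of a non-negative expression signal for 101935 assembled isoforms. Per the series design text, reads were assembled with Trinity and TPM estimated with kallisto. Per the submitters' processing notes CASAVA and Trimmomatic were also used (versions not given in the sources used here). TMM scaling by the authors is recorded in the table's name, so a library dominated by few transcripts has its other values raised. The signal keeps no read totals, so depth is unknown and no count model or counting interval was used.

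Members and comparisons were chosen with earlier results of these data known. Each value column matched 1 sample by the code in its title. Tests used R 4.3.3 with limma 3.58.1 on log2(value + 1), in the 25 libraries that are not radicle, with 1 mean per tissue, an intensity trend, no covariates and 16 residual degrees of freedom, over transcripts at 1 or more in at least 2 of these libraries. Calls needed a Benjamini-Hochberg adjusted p below 0.05 over all transcripts tested and a log2 difference of 1 or more in size. The code was tested on simulated data. Alternatives changed the added value, the filter, the scaling, the libraries in the fit and the covariates, and left out each library in turn.

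Named are the 10 members with the highest score, the 5 with the highest radicle mean, up to 3 called members with the largest difference per contrast and direction, the highest scoring member per next tissue, the 3 members just inside and 3 transcripts just outside the limit, and the members of the cluster that holds the most. Others are said to be chosen after their values were seen.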

Additional observations from a re-analysis of the deposited data

How the results depend on the processing

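The cause of the changes below was not tested. With 5 as the added value, 41 members were called higher in germinating seed than plumule, and 6 higher and 12 lower in young root than germinating seed, while 66 transcripts reached a score of 4, all of them members. With 0.1, 0 members were lower in germinating seed than plumule, against 9.47% of all transcripts. In young root 10 were higher than in germinating seed (8.62%, against 6.71%). A common sum gave 2 lower in germinating seed than plumule (1.72%, against 10.7% of all transcripts). In young root it gave 3 higher than in germinating seed (2.59%, against 3.17%) and 57 lower (49.1%, against 29.1%). It left 116 transcripts at a score of 4 or more, 72 of them members. A filter at 5, which tested only 71 members, gave 17 lower in young root than germinating seed (23.9%, against 31.3% of all transcripts). By F it gave 70 members (98.6%, against 88.1%). A fit of only the compared tissues gave 0 lower in germinating seed than plumule, against 10.3% of all transcripts. In young root against germinating seed it gave 9 higher (8.04%, against 9.68%) and 14 lower (12.5%, against 22.4%). Both of these shares were below those of all transcripts. A filter on the other 7 tissues, chosen after seeing the data, gave 10 higher and 14 lower. Scoring by the highest tissue mean left 282 transcripts at 4 or more. Without young root among the others 556 did, and 41 members stayed in the top 150. Without germinating seed 332 did, and 81 stayed. A fit with the identifier series as a covariate moved the median difference between young root and germinating seed. It was then 0.12 over the tested members and -0.21 over all transcripts. For young root against young leaf the members' median was 2.21, and for germinating seed against plumule 1.68. Only young root among the tissues in the fit has both series. With the replicate block, 12.7% and 16.6%, 6.94% and 8.81%, and 7.98% and 17.4% of all transcripts were called, and 57.4% by F. The replicate block changed each count of called members by at most 1 (in the same order 77 and 0, 82 and 1, 21 and 27, and 108 by F). Among named members it called TRINITY_DN16498_c2_g1_i1 higher in young root than germinating seed (1.01) and TRINITY_DN18830_c1_g1_i2 higher in germinating seed than plumule (1.19), and lost the call of TRINITY_DN10925_c1_g1_i1 between young root and germinating seed. Same-numbered libraries deviated together little on average (mean r 0.0125 over 63 pairs, highest 0.453, 3 above 0.1). Radicle and the tissues with 2 libraries were not in this check. It cannot decide whether the numbers pair the libraries, since a shared plant or batch need not show in these correlations.

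Leaving out 1 library gave 73 to 81 members higher and 0 to 0 lower in young root than young leaf, 74 to 82 higher and 0 to 2 lower in germinating seed than plumule, 15 to 23 higher and 23 to 28 lower in young root than germinating seed, and 105 to 111 by F. It gave 161 to 290 transcripts at a score of 4 or more, the most without radicle replicate 1, and 104 to 150 members in the top 150. Of 2441 values for named members under alternatives, 2351 kept their side of the threshold, 66 lost the call and 24 gained one, and none changed sign while called. The unknown depth limits every value near 0.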
